A study of Mus musculus with 2 samples.

Results

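Glutathione S-transferases (GSTs) were examined in 4T1 cells, a mouse mammary carcinoma line that spreads to the lung, after 48 h with PBS or with potassium oxalate. The 10 members followed, of 21911 genes in the table, were Gstp1, Gstp2, Gstp3, Gsta4, Gstm1, Gstm2, Gstm5, Gsto1, Gstt1 and Gstk1. They were listed by name and were chosen by the FPKM values of Gstp2, whose signal was lost in the oxalate library, so the oxalate to PBS difference of Gstp2 is a description and supports nothing. Each condition was 1 library of polyadenylated RNA from a culture of the same line, with no transgene or deletion named. The oxalate dose is 20 µM in the sample's treatment label and 20 mM in the treatment protocol. With 1 library per condition no difference has a replicate check, no test between the conditions was possible, and intervals given below cover counting error only.

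GSTs join the tripeptide glutathione to electrophilic compounds, which makes these compounds more soluble and easier to export. The cytosolic enzymes fall into classes named by Greek letters, and the kappa class is found in mitochondria and peroxisomes. Pi class enzymes are typical of epithelia and many tumors, alpha class enzymes include those that remove products of lipid peroxidation, and several genes of the family are targets of the oxidative stress factor NRF2. Genes of 1 class often lie side by side on a chromosome and are so alike that short reads cannot always be placed in one of them.

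The sequences of the pi class genes show how close they are. Gstp1 (ENSMUSG00000060803), Gstp2 (ENSMUSG00000038155) and Gstp3 (ENSMUSG00000058216) lie on the minus strand of chromosome 19 (GRCm38, GENCODE M21) at chr19:4035407-4037985, chr19:4040285-4046023 and chr19:4057477-4059569. Their longest coding sequences all have 633 bases with the stop codon. Gstp2 differed from Gstp1 at 12 of these bases, in 9 of 211 codons, which is an identity of 98.1%. Gstp3 differed from Gstp1 at 180 bases, in 123 codons. The first 120 coding bases, counted from the start codon, are shown because they hold 6 of the 12 differences, with every base that differs from Gstp1 in capitals.
Gstp1: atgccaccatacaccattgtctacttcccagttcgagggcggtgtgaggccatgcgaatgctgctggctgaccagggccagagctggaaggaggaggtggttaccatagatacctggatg
Gstp2: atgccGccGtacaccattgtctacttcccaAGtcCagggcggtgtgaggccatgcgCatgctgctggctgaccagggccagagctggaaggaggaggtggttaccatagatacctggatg
Gstp3: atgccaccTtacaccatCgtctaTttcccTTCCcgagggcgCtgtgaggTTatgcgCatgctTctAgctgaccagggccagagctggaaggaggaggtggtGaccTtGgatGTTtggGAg
Coding bases 241 to 360 are shown because they hold the other 6 differences.
Gstp1: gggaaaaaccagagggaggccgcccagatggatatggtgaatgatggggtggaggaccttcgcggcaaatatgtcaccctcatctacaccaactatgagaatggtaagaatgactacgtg
Gstp2: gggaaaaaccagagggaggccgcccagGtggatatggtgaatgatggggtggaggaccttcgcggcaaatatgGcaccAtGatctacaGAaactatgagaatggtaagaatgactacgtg
Gstp3: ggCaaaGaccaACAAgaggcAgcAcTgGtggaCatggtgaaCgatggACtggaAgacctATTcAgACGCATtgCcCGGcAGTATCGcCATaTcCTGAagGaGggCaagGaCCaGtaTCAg
No difference between Gstp1 and Gstp2 lay outside these stretches. The last one was at coding base 330, and the 303 bases from 331 to the stop codon at 633 were identical. Gstp3 had 21 differences from Gstp1 in the first stretch and 54 in the second, and its longest run identical to Gstp1 was 35 bases. Of the 748 words of 50 bases in the main Gstp2 transcript, 481 (64.3%) also occurred in a transcript of Gstp1, and 0 occurred in one of Gstp3. A read that lies within such a word carries no base that tells Gstp2 from Gstp1. A longer read, or one from the other words, may carry such a base.

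**Figure D1:**
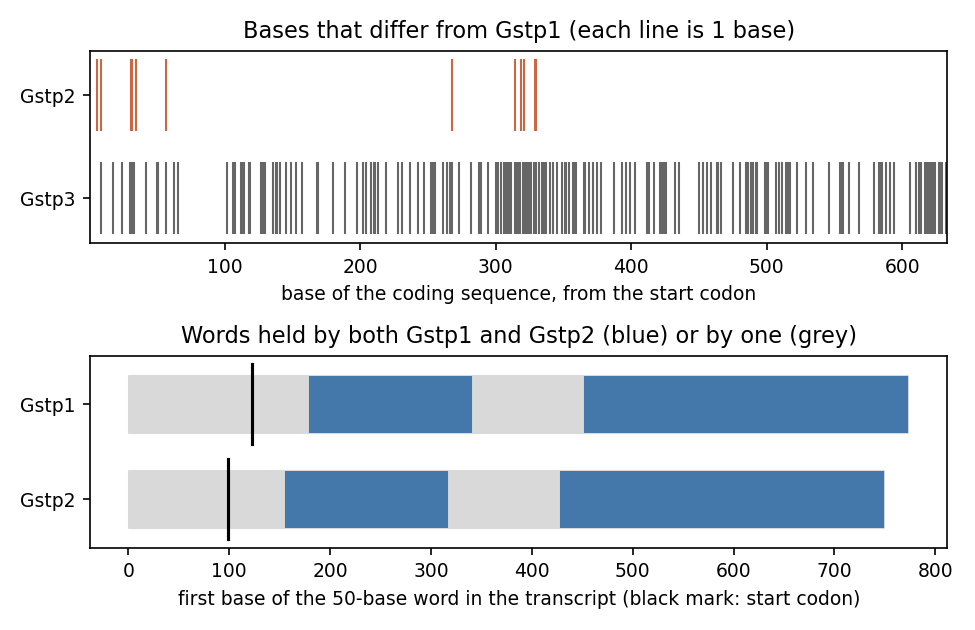
Upper panel: position along the 633-base coding sequence (x axis, bases from the start codon) of each base at which Gstp2 or Gstp3 differs from Gstp1. Lower panel: first base of every 50-base word along the main Gstp1 and Gstp2 transcripts (x axis), blue where the word occurs in both genes and grey where it does not, with the start codon as a black mark. The 12 Gstp2 differences stand in 2 groups, none beyond base 330, whereas the 180 of Gstp3 are spread over the whole length.

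Of the pi class, Gstp1 was the most abundant member of the family in 4T1 cells. Gstp1 was at 145.10 FPKM (a fragment count corrected for transcript length and library size, as deposited by the authors) with PBS and at 145.23 FPKM with oxalate. The levels in both libraries were the same within counting error, with a 95% interval of the log2 ratio from -0.06 to 0.06 (exact Clopper-Pearson interval on reads estimated from the FPKM values, about 6273 and 4052). Gstp2 was at 13.36 FPKM with PBS and was listed at 0 with oxalate. At its coding transcript length, 13.36 FPKM is about 389 reads, and a single read in the oxalate library would have been listed as about 0.053 FPKM, so the 0 was not made by rounding to 2 decimals. Gstp3 was listed at 0 in both libraries.

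On the scale log2((oxalate + 1)/(PBS + 1)), with a pseudocount of 1 FPKM, Gstp1 differed by 0.001 and Gstp2 by -3.84. The value of Gstp2 is set by the pseudocount, because its oxalate level is 0, and it is not a fold change. The sum of Gstp1 and Gstp2 was 158.46 FPKM with PBS against 145.23 FPKM with oxalate, 8.35% lower, and Gstp2 made up 8.43% of the sum with PBS. The mean coding lengths differ (0.766 kb for Gstp1 and 0.516 kb for Gstp2), so this sum depends on which gene a read was assigned to. In estimated reads, about 6662 and 4052, the counting interval of the log2 ratio of the pair, corrected for depth, ran from -0.14 to -0.03.

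Gstp2 was set beside genes of a like level. It was chosen for its loss with oxalate, so its standing among them was set in advance and supports nothing. Among 2067 other genes with 10 to 20 FPKM in the PBS library, the median ratio of oxalate to PBS was 1.00, 9 genes were at least 2-fold lower and the lowest oxalate to PBS ratio was 0.184, that of Mfap3 (11.93 and 2.2 FPKM), a gene named after its values were seen. Over all genes listed, 4 had at least 1 FPKM with PBS and 0 with oxalate, and Gstp2 had the highest PBS level of these 4. The others were the predicted genes Gm44973 (2.85 FPKM with PBS), Gm3055 (1.24 FPKM) and Gm3448 (1.12 FPKM), and the next gene in that order was Rhox4f at 0.67 FPKM. In the opposite direction 1 gene, Gm28051, also named after its values were seen, was at 0 with PBS and at 2.65 FPKM with oxalate. The 4 genes after Gstp2 are those most like it by a fixed measure, 0 with oxalate and the highest PBS levels, over 2 libraries. Of their 50-base transcript words, the share also present in another gene was 54.3% for Gstp2 over all its transcripts, 95.2% for Gm44973, 93.2% for Gm3055, 29.5% for Gm3448, 66.8% for Rhox4f and 87.1% for Gm28051. The median share was 0.712% over 10261 genes whose mean was 1 FPKM or more. Among the 387 such genes with at least 50% of their words shared, 14 (3.62%) differed at least 2-fold, against 37 of the 8309 genes (0.445%) with under 10% shared. The 14 include Gstp2 itself, Gm44973 and Gm28051, and the groups were not matched on level. The part that shared sequence had in the Gstp2 values was not tested.

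Genes around the Gstp cluster were read in the same way. Within 100 kb of the cluster 17 other genes were listed and 8 had a mean of at least 1 FPKM, 5 of them higher and 3 lower with oxalate. Their log2 differences ran from -0.225 (Nudt8) to 0.313 (Doc2g), with a median of 0.061. Ndufv1, a subunit of respiratory complex I, had 56.4 FPKM with PBS and 63.26 with oxalate. Cdk2ap2 was at 91.12 and 90.53 FPKM, and Coro1b at 218.71 and 219.85. Pitpnm1 and Rps6kb2 differed by 0.163 and 0.114 on the same log2 scale. None of the 8 differed by 2-fold, which 0.653% of all genes with a mean of at least 1 FPKM did.

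The start regions of Gstp1 and Gstp2 are also close, and are shown because the PBS level of Gstp1 was 10.9 times that of Gstp2 per length. That ratio rests on how reads shared by both genes were assigned, which is not stated. Any link between these sequences and the levels was not tested. Each has 250 bases before and 50 after the RefSeq start site (GRCm38.p6, minus strand, 5′ to 3′), at chr19:4037863-4038162 for Gstp1 and chr19:4042172-4042471 for Gstp2. In GENCODE M21 the Gstp2 gene reaches upstream to base 4046023, so this window is not its only annotated start. Capitals mark matches, on either strand, to an AP-1 site (TGANTCA), a GC box (GGGCGG) or a CCAAT box (CCAAT).
Gstp1: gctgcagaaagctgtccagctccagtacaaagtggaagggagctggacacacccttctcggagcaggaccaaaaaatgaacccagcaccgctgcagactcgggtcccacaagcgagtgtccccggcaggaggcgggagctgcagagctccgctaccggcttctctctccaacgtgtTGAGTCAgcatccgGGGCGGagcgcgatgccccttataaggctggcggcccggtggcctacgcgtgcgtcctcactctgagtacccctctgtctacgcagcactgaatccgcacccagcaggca
Gstp2: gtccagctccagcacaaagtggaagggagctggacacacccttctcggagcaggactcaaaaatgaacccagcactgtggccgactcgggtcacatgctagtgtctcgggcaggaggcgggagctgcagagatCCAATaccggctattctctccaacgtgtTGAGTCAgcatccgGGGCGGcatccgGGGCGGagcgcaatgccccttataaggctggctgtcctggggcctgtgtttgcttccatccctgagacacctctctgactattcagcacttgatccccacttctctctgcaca
The windows aligned with 75.9% identity. Both held 1 match to the AP-1 letters, which 7.81% of 32851 promoter windows in the same RefSeq table hold. Gstp1 held 1 GC box and Gstp2 held 2, a motif present in 35.7% of all windows. Gstp2 alone of this pair had a CCAAT box, found in 37.4% of all windows. The core of the antioxidant response element bound by NRF2 (TGACNNNGC) was in neither window, was in that of 1 of the 9 members with a RefSeq window (Gstm5), and was in 12.4% of all windows. The core letters can overlap an AP-1 match, and the absence of the letters says nothing about binding of the factor.

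**Figure D2:**
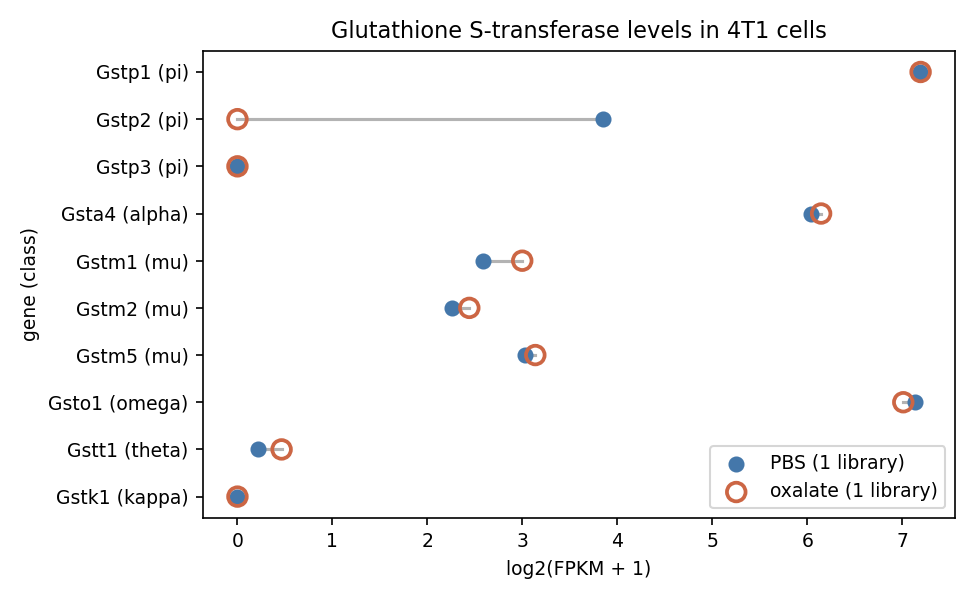
Level of each member as log2(FPKM + 1) (x axis) in the PBS library (filled points) and the oxalate library (open circles), with the class in brackets and a line joining both values. Gstp2 is the only member whose circle lies far from its point, at 0 against 13.36 FPKM. Gstp1, Gsto1 and Gsta4 lie highest, and Gstp3 and Gstk1 are at 0 in both.

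Outside the pi class, the highest member was Gsto1 (ENSMUSG00000025068, chr19:47854970-47864790), an omega class enzyme with thiol transferase activity and little of the usual conjugating activity. Gsto1 was at 138.91 FPKM with PBS against 127.89 FPKM with oxalate, a log2 ratio of -0.12 with a counting interval from -0.18 to -0.06. Gsta4 (ENSMUSG00000032348, chr9:78182774-78209349), the alpha class enzyme known for conjugating the lipid peroxidation product 4-hydroxynonenal, was at 64.79 and 69.75 FPKM. The log2 ratio of Gsta4 was 0.11, with a counting interval from 0.03 to 0.19. Both intervals exclude 0, but they hold no spread between cultures, and the differences of these abundant genes were 1.08-fold for Gsta4 and 0.921-fold for Gsto1.

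The 3 mu class members lie in 1 cluster on chromosome 3 and were expressed at low levels. Gstm5 had 7.16 FPKM with PBS and 7.79 with oxalate, a log2 ratio of 0.12 with a counting interval from -0.13 to 0.38. Gstm2 was at 3.8 and 4.43 FPKM, a log2 ratio of 0.22 with an interval from -0.09 to 0.53. Both intervals include 0, so no difference of Gstm5 or Gstm2 could be detected with these reads. Gstm1 (ENSMUSG00000058135, chr3:108012255-108017973) was at 5.02 and 6.99 FPKM, the largest proportional gain of the members with a mean of at least 1 FPKM. Its ratio was 1.39-fold, a log2 ratio of 0.48 with an interval from 0.23 to 0.73. On the scale with a pseudocount of 1, Gstm1 differed by 0.408, and the central 95% of 10267 genes with a mean of at least 1 FPKM ran from -0.36 to 0.37. Of the 50-base words of Gstm1, 18.9% also occurred in another gene. The remaining mu genes, below the mean of 1 FPKM, were Gstm4, at 0.15 and 0.38 FPKM (about 11 and 18 reads), and Gstm3, Gstm6 and Gstm7, which were listed at 0 in both libraries.

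Gstt1, a theta class enzyme, was barely present at 0.16 FPKM with PBS and 0.38 with oxalate, about 8 and 12 reads. With so few reads the interval of its log2 ratio was -0.19 to 2.71, and no difference could be detected. Gstk1, the kappa class enzyme of mitochondria and peroxisomes, was listed at 0 in both libraries. A read of Gstk1 would have been listed as about 0.019 FPKM with PBS and 0.03 with oxalate. Over all 21911 genes listed, 7979 were at 0 in both libraries. Zero values were less common among 192 ribosomal, respiratory complex, proteasome, spliceosome and similar genes. These were matched by name only, not by known use in most cells. Of them, 6 were listed at 0 in both libraries (Ndufa4l2, Psma8, Psmb11, Rpl10l, Rpl39l and Rpl3l) and 0 in only one. These genes do not show how unusual the 0 of Gstk1 is.

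In all, 7 of the 10 members had a mean of at least 1 FPKM, Gstp2 through its PBS value alone, Gstt1 was below it and Gstp3 and Gstk1 were listed at 0. Of all 21911 genes listed, 10267 had such a mean and 7979 were at 0 in both libraries. One of the 7, Gstp2, passed 2-fold, and it was chosen for this difference. Among all genes with a mean of at least 1 FPKM, 0.653% passed 2-fold in either direction, 0.36% lowered and 0.292% raised. At 1.5-fold, which again only Gstp2 of the members passed, the shares were 1.05% lowered and 0.935% raised. The other 6 members ran from -0.118 to 0.408 on the log2 scale with a pseudocount of 1. Over the 7 members the median was 0.105 (5 higher and 2 lower), beside a median of 0.0031 over all 10267 genes. The lower ones include Gstp2, chosen for its loss, and the higher ones include Gstp1, at 0.001. The count of directions therefore supports nothing. The members' median was 0.053 both with no filter on the mean and with a mean of at least 5 FPKM required. Without Gstp2 the order of the levels was the same in both libraries: Gstp1, Gsto1, Gsta4, Gstm5, Gstm1, Gstm2 and Gstt1. Whether neighbors in that order differ beyond the spread of cultures could not be assessed.

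**Figure D3:**
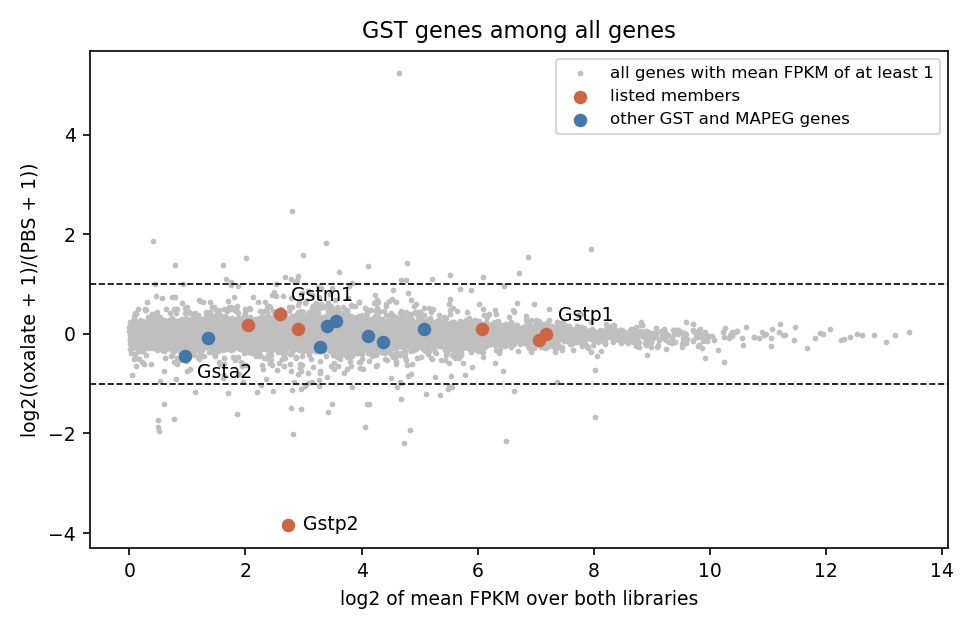
Log2((oxalate + 1)/(PBS + 1)) (y axis) against the log2 of the mean FPKM (x axis) for the 10267 genes with a mean of at least 1 FPKM (grey), with the members in orange, other GST and microsomal GST genes in blue, and 2-fold as dashed lines. Gstp2 is the lowest point of the plot, at -3.84, and the other GST points lie between the dashed lines.

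The remaining genes of the family place the members in context. Of 24 genes of the family outside the microsomal enzymes, 12 had a mean of at least 1 FPKM and 7 were listed at 0 in both libraries. Of all 21911 genes listed, 10267 had such a mean and 7979 were at 0 in both, so these counts set no trait of the family apart. Summed by class, the pi genes held 158.46 FPKM with PBS and 145.23 with oxalate, the omega genes 139.19 and 128.25, and the alpha genes 99.8 and 106.11. Mu genes summed to 16.13 and 19.59 FPKM, theta genes to 10.42 and 11.90, and the only zeta gene, Gstz1, was at 10.62 and 12.83. The pi class was thus 36.5% of the summed GST level with PBS and 34.3% with oxalate, and its log2 difference was -0.125. This lower pi sum restates the loss of Gstp2, the gene chosen for it, since Gstp1 was at 145.10 and 145.23 FPKM. The total, without the microsomal genes and Gstcd, was 434.62 FPKM with PBS and 423.93 with oxalate. With the members of a class added up, no class that held a gene with a mean of at least 1 FPKM differed by 2-fold.

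**Figure D4:**
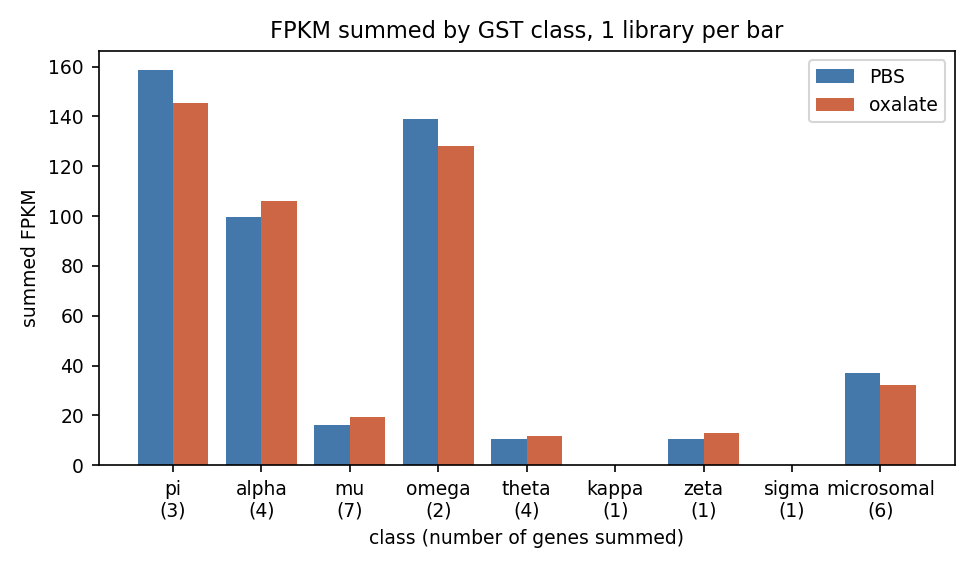
FPKM summed over the genes of each GST class (y axis, starting at 0) in the PBS library (blue) and the oxalate library (orange), with the number of genes in brackets. Pi and omega are the tallest pairs, at 158.46 and 145.23 FPKM and at 139.19 and 128.25 FPKM, and kappa and sigma have no visible bar.

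A second pair of near-identical genes was found in the alpha class. Of 253 pairs among 23 GST genes, the coding sequences of 2 pairs were at least 90% identical, Gstp1 with Gstp2 and Gsta1 with Gsta2 (97.5%). Gsta1 had 32.62 FPKM with PBS and 34.87 with oxalate, and Gsta2 at 2.39 and 1.49, about 109 and 44 reads. The counting interval of the log2 ratio of Gsta2 ran from -1.22 to -0.16. On the scale with a pseudocount of 1, Gsta2 differed by -0.445, below the central 95% of all genes (-0.36 to 0.37). Of the 50-base words, 90.5% of those of Gsta1 and 49.8% of those of Gsta2 also occurred in another gene. The interval does not cover how such shared reads were assigned. The sum of Gsta1 and Gsta2 was 35.01 FPKM with PBS and 36.36 with oxalate. Elsewhere in the family, Gstt3 was at 9.89 and 11.22 FPKM and Gstcd at 17.47 and 17.02. Gstz1, an isomerase of tyrosine breakdown, differed by 0.251 on the log2 scale with a pseudocount of 1.

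Microsomal GSTs are membrane enzymes unrelated to the cytosolic ones in sequence. Mgst1 had 10.67 FPKM with PBS and 8.77 with oxalate, Mgst3 at 22.00 and 19.49, and Ltc4s, which makes the conjugate leukotriene C4, at 2.66 and 2.45. All 3 were lower with oxalate, with log2 differences of -0.256, -0.167 and -0.085 at a pseudocount of 1, and the counting intervals of the log2 ratio ran from -0.51 to -0.06, from -0.30 to -0.05 and from -0.64 to 0.40. None of them passed 2-fold, which 0.653% of all genes with a mean of at least 1 FPKM did. The other microsomal and related genes lay below that mean. Mgst2 was at 0.84 and 0.73 FPKM, Alox5ap at 0.23 and 0, and Ptges at 0.48 and 0.68. Ptges, with about 99 and 90 reads, was thus higher with oxalate, with a counting interval of the log2 ratio from 0.07 to 0.92.

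The genes that supply and use glutathione were read from lists written from general knowledge. Of 16 genes of glutathione synthesis and turnover, 11 had a mean of at least 1 FPKM, 4 higher and 7 lower with oxalate, and their median log2 difference was -0.055. None passed 1.5-fold. Slc3a2, a subunit of the cystine transporter, was at 145.6 and 131.47 FPKM, the glutathione reductase gene Gsr at 67.20 and 67.06, and Gclm, a subunit of the rate-limiting enzyme of glutathione synthesis, at 36.74 and 32.60. Of 14 genes of conjugate export and mercapturate formation 7 had a mean of at least 1 FPKM, 5 higher and 2 lower, with a median of 0.141. Abcc1, the main exporter of glutathione conjugates, was at 119.09 and 124.08 FPKM, and the peptidase gene Lap3 at 108.25 and 106.36.

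Of 20 other genes for proteins that use glutathione or have a GST fold, 16 had a mean of at least 1 FPKM, 7 higher, 8 lower and Mars equal at 50.7 FPKM in both, with a median of -0.008. Eef1g, Clic1 and Vars were the most abundant of them, at 507.28, 287.58 and 246.08 FPKM with PBS and 501.2, 297.35 and 242.44 with oxalate. All 20 genes of a list of NRF2 regulators and targets outside glutathione metabolism had a mean of at least 1 FPKM, with 10 higher, 10 lower, and a median of -0.001. By the mean of both libraries the most abundant were the ferritin genes Fth1 (3781.58 and 3839.56 FPKM) and Ftl1 (2916.57 and 2685.84) and the pentose phosphate enzyme gene Tkt (176.13 and 174.13). No gene of these 4 lists passed 1.5-fold, a difference that 1.99% of all genes with a mean of at least 1 FPKM passed. Slc7a11, named here only for this, is counted in both the glutathione synthesis list and the NRF2 list.

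**Figure D5:**
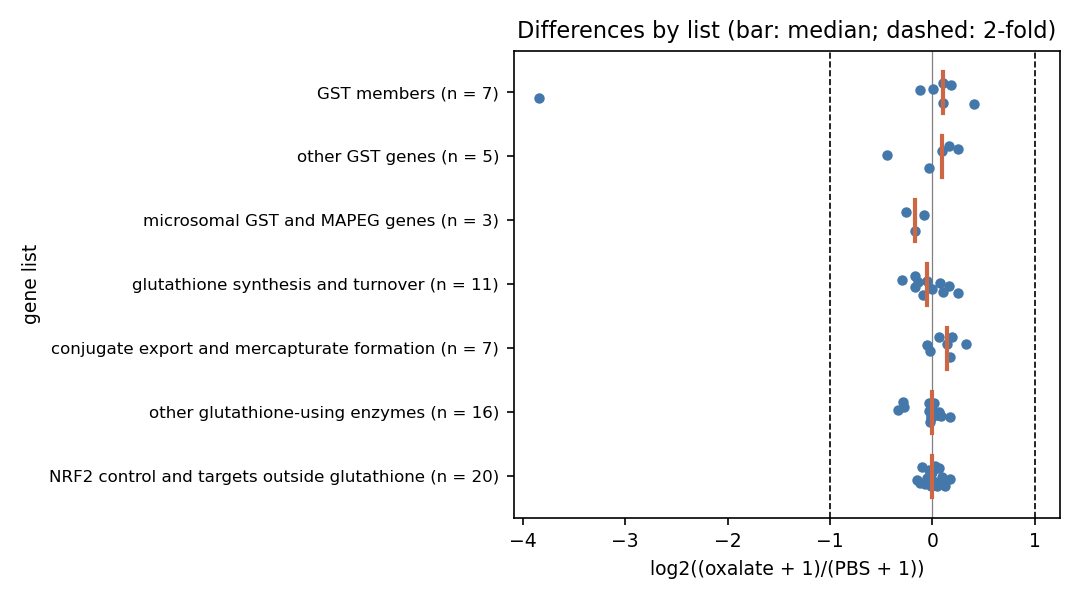
Log2((oxalate + 1)/(PBS + 1)) (x axis) of the genes of each list with a mean of at least 1 FPKM (points, spread vertically only to be seen), with the list median as an orange bar and 2-fold as dashed lines. Gstp2, at -3.84, is the only point outside the dashed lines, and the medians run from -0.167 (microsomal genes) to 0.141 (conjugate export).

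The label of the cells was checked against marker genes. Of 9 epithelial and mammary carcinoma markers 8 were at 1 FPKM or more in both libraries, with Krt8 at 401.94 and 429.31 FPKM and Krt5 at 0 and 0.03. Endothelial and hepatocyte markers were all below 1 FPKM. Of 4 leukocyte markers only Cd68 reached 1 FPKM, and Ptprc and Cd3e were listed at 0. Of 5 fibroblast markers, Col1a1 (143.48 and 144.61 FPKM) and Pdgfra (1.88 and 1.93) reached it. Below it, Col1a2 was at 0.88 and 0.33 FPKM (about 154 and 37 reads, counting interval of the log2 ratio from -1.98 to -0.90) and Col3a1 at 0.75 and 0.6. The summed levels were 1700.44 and 1762.09 FPKM for the epithelial list and 147.3 and 147.8 for the fibroblast list, of which Col1a1 made up nearly the whole. The FPKM values summed to 567163 with PBS and 559026 with oxalate, and the depth estimated from the steps of low values was about 56500000 and 36400000 reads.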

How the data were processed

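RNA of 4T1 cells was enriched for polyadenylated molecules, reverse transcribed from random primers and read on a HiSeq, 1 library per condition. The values deposited by the authors are FPKM with 2 decimals, listed by Ensembl identifier for 21911 genes. The submitters' processing notes name Bowtie2 2.2.8 and TopHat2 2.1.1, whereas the quantification tool, build and annotation are not given in the sources used here. How reads shared by paralogs were assigned is not stated either. Symbols, coordinates and transcripts came from GENCODE M21 (GRCm38), which matched 21848 identifiers and need not be the release the authors used. Of the lists, 1 symbol (Gsta13) was not matched.

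Fold changes were log2((oxalate + 1)/(PBS + 1)), which understates low genes. Reads were estimated as FPKM times the mean coding transcript length, divided by the value of 1 read at 1 kb (0.0177 FPKM with PBS, 0.0274 with oxalate), which was found from steps in low values of 45 and 96 genes with 1 transcript. In short genes with several coding transcripts, the share within 0.2 of a whole read was 95.2% of 42 values (PBS) and 91.9% of 37 (oxalate). Exact Clopper-Pearson 95% intervals of the ratio cover counting error only. Shared sequence was the share of distinct 50-base words, on either strand, held by transcripts of another gene. Coding sequences, in place of the planned protein sequences, which were not used here, were aligned globally with Biopython 1.88. Mars1 was matched as Mars. Genes named were the members, other GST and microsomal GST genes with a mean of at least 1 FPKM, neighbors within 100 kb of the Gstp genes, genes at 0 in one library, and list genes changed 1.5-fold or, where there were none, the 3 most abundant. Some genes that this rule names are not reported here. Genes named outside this rule are marked as such or lie below the mean of 1 FPKM. The members and lists were chosen with earlier results of these data known. No test was possible with 1 library per condition. The alternatives were other pseudocounts, a rescaling, other filters and thresholds, and words of 100 bases. The value of 1 read and the 2-fold calls were tested on simulated FPKM values. The sequence comparisons and the counting intervals were not tested in this way. Software was scipy 1.17.1, pandas 2.3.3 and numpy 2.4.6 under Python 3.11.15, with matplotlib 3.10.9 for plots.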

Additional observations from a re-analysis of the deposited data

How the results depend on the processing

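No paired analysis was possible because PBS and oxalate had 1 library each, and no replicate could be left out. The log2 difference of Gstp2 became -7.07 with a pseudocount of 0.1 and -10.38 with 0.01, which follows from its 0 with oxalate. That of Gstt1, with about 8 and 12 reads, went from 0.25 to 0.88 and 1.20, within its wide counting interval. The other members above 0 moved by less than their counting intervals at both pseudocounts, and all members did after the oxalate values were multiplied by 0.9977, which sets the median log2 ratio to 0. Of the members, 1 (Gstp2) passed 2-fold under each of these settings among those with a mean of at least 1 FPKM, at 1.5-fold and with no filter on the mean. The median of the members went from 0.105 to 0.053 with no filter and at a mean of at least 5 FPKM. The median of the conjugate export list changed from 0.141 to -0.007 with no filter, where the genes at or near 0 enter it. With at least 5 FPKM required in the other library, the genes at 0 only with oxalate went from 4 to 1, which was Gstp2, and those at 0 only with PBS from 1 to 0. With words of 100 bases the shared part was 46.9% for Gstp2 and 25.1% for Gstp1, against 54.3% and 33.7%. Depth limits Gstt1, Gstm2 and Gstm5, whose intervals include 0. Values of paralogs that share reads are uncertain, since how the authors assigned such reads is not stated.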
